A study of Homo sapiens with 12 samples.

Results

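A set of 10 genes put forward as induced by estradiol (E2) was followed in MDA-MB-231-ERβ cells: GREB1, TFF1, MAB21L4, FGFBP1, CALB2, SOD3, SLC2A5, GJA5, ZNF385A and CARD6. They were proposed as genes chosen by their rise with E2 relative to vehicle in these same libraries, and they are 10 of the 12451 gene entries of the count table. The rise of CARD6 in that comparison was small (log2 fold change 1.21, below the fold threshold of 1.5 in the study) and depended on the processing, from 0.87 with scaling by library size alone to 2.62 with 1 factor from housekeeping genes in the fit. CARD6 ranked 1781 from the top in E2 relative to vehicle and 197 from the top in E2+TNFα relative to TNFα. How CARD6 came to be chosen is thus not known from these values. Because the genes were proposed by their values of E2 relative to vehicle, those values are given as a description, with no test. MDA-MB-231 is a triple negative breast cancer cell line, and the line used here carries full-length estrogen receptor beta (ERβ) under the control of doxycycline (dox). RNA-seq was performed on 12 libraries in 4 groups of 3, all grown in charcoal-stripped serum. The vehicle group received dox and vehicle for 5 days. The TNFα group received dox and vehicle for 5 days, with 20 ng/ml TNFα for the final 3 h. The E2 group received dox and 1 nM E2 for 5 days. The E2+TNFα group received E2 (1 nM, 5 days) with TNFα (20 ng/ml) added for the final 3 h, and dox is taken for it from the methods of the study because its labels do not name it. No library without ERβ was analysed here, so a response through ERβ and a response to E2 by another route cannot be told apart. All libraries came from 1 engineered line, and the replicates were dishes plated in triplicate, so the p-values measure the spread between dishes.

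ERβ, the product of ESR2, is a nuclear receptor that binds E2 and then regulates transcription, either by binding estrogen response elements in DNA or through other transcription factors such as AP-1. GREB1 and TFF1 are among the best known E2 target genes of luminal breast cancer cells, where the related receptor ERα is the main estrogen receptor. TNFα is an inflammatory cytokine that activates NFκB.

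The libraries held between 7.65 M (E2 replicate 2) and 39.9 M (vehicle replicate 3) reads assigned to genes (M, mega). The vehicle libraries stood apart from the other 9 on the first principal component, which carried 68.7% of the variance, and the second component, with 19.6%, set the TNFα libraries apart. A batch and the vehicle condition cannot be told apart from the labels. E2+TNFα relative to TNFα uses no vehicle library, and it is the comparison in which the 10 genes were tested. The genes had been proposed with earlier results of these data known, so this test is not independent of their choice in the strict sense.

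ESR2 was expressed in every group. Its level was 472.5 ± 14.9 CPM (SD, n = 3; CPM, counts scaled to a library of 1 M reads) in vehicle, 254.9 ± 26.7 in TNFα, 306 ± 14.7 in E2 and 448.5 ± 53.2 in E2+TNFα. ESR2 was thus higher in E2+TNFα than in TNFα by 0.81 on the log2 scale (SE 0.12, adjusted p = 5.73e-05, quasi-likelihood test of edgeR with Benjamini-Hochberg adjustment) and lower in E2 than in vehicle (log2 −0.62, SE 0.12, adjusted p = 0.000152), both below the fold threshold of the study. The part of the receptor level in the changes below was not tested. ESR1 and PGR had no entry among the counts used, which does not show that they were absent from the cells, and TFF3 gave no values here. Most markers of the mesenchymal identity of MDA-MB-231 were abundant, with vimentin (VIM) at a median of 470.0 RPKM (reads scaled by exon length in kilobases and by library size) over the 12 libraries and AXL at 327 RPKM. ZEB1, a transcription factor of the mesenchymal state, was low, with a median of 0.297 RPKM and a range of 0.064 to 3.57. Of 10 listed mesenchymal markers, 8 were in the table and none was at 0 in any library, but only 7 reached 1 RPKM in the 9 libraries other than vehicle. Their summed level was 1359 to 1437 RPKM in vehicle, 1346 to 1389 in TNFα, 1726 to 2093 in E2 and 1812 to 2136 in E2+TNFα. Of 11 luminal markers, 7 were in the table, also with none at 0. The summed luminal level was 754 to 891 RPKM in vehicle, 1309.8 to 1426 in TNFα, 3849 to 5586 in E2 and 3378 to 4203 in E2+TNFα. Keratin genes made up most of it, with KRT19 the most abundant in all 6 libraries with E2. Luminal keratins thus moved with E2 together with the 10 genes, and the part of a change in cell identity in the result was not tested.

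Because the genes rose together, the sequence around their starts was searched for an estrogen response element, a palindrome of the repeats GGTCA and TGACC separated by any 3 bases, which reads the same on both strands. RefSeq promoters (GRCh38.p14, 250 bases before to 50 after the start) matched 6 of the 10 genes by symbol: MAB21L4, FGFBP1, SOD3, SLC2A5, GJA5 and CARD6. GREB1, TFF1, CALB2 and ZNF385A had no entry. No perfect palindrome was found within 5000 bases of the start of any of the 6, against 1.11% of the 27305 genes with an entry. A palindrome with at most 1 mismatch in its 10 fixed letters lay within that distance of 4 of the 6 genes, against 24.8% of all genes. These matches are shown on the plus strand of hg38, with both repeats in capitals.
CARD6 chr5:40839225-40839253: accttcctGGTCAagtTGAACaacaacaa
FGFBP1 chr4:15937246-15937274: tcatgaaaGGTGAtgtTGACCcagagttg
MAB21L4 chr2:240893580-240893608: cagggtggGGGCAgccTGACCcctgtcac
MAB21L4 chr2:240894343-240894371: cccttccaGGACAaccTGACCccctggag
SLC2A5 chr1:9070394-9070422: tttaaggaGCTCAgaaTGACCtagggatg
Counted from 1 at the first base of the palindrome, the mismatches are C12A in CARD6, C4G in FGFBP1, T3G and T3A in the pair from MAB21L4, and G2C in SLC2A5. The CARD6 match was centred 2128 bases and the SLC2A5 match 773 bases upstream of the start. The FGFBP1 match was centred 1480 bases downstream of it. RefSeq gives MAB21L4 a pair of starts, and its matches were centred 2562 and 1799 bases downstream of the start at 240896156, or 1559 and 2322 bases upstream of the start at 240892035. In the gene annotation (GENCODE, hg38) the matches of FGFBP1, MAB21L4 and SLC2A5 overlapped an intron of the gene and no exon, that of SLC2A5 because other transcripts of the gene start further upstream. The CARD6 match lay in no annotated gene.

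Within the 300-base promoter windows, a single repeat (GGTCA or TGACC) was found in SOD3 and CARD6, and is present in 42.6% of all genes with an entry. The motif TGANTCA, the core of an AP-1 site, was found in MAB21L4 and CARD6, against 9.37% of all genes. Both motifs were searched on both strands. GGGCGG or its reverse CCGCCC was found in none of the 6 and in 48.3% of all genes. The 3 promoters with a repeat or TGANTCA are shown 5′ to 3′ on the strand of the gene, with those motifs in capitals. MAB21L4 is on the minus strand, and SOD3 and CARD6 are on the plus strand.
MAB21L4 chr2:240896107-240896406: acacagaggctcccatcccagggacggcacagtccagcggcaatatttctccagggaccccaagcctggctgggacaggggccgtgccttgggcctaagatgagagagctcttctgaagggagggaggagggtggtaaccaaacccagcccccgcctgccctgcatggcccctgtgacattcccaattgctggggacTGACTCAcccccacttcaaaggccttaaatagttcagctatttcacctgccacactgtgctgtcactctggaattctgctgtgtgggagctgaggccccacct
SOD3 chr4:24795323-24795622: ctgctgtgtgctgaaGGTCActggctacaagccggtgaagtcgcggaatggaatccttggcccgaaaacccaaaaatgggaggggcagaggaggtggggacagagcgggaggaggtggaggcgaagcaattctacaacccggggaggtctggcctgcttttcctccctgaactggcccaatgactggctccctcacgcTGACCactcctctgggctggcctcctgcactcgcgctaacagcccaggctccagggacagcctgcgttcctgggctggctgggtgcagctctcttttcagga
CARD6 chr5:40841117-40841416: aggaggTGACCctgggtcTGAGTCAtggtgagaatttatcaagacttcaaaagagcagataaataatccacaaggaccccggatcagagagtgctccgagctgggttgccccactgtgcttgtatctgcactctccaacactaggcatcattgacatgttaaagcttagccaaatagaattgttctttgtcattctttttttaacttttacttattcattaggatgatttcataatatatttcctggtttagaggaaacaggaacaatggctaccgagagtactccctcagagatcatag
A match describes the letters only, and binding of ERβ was not measured in these data.

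GREB1 (chr2:11534116-11642788, hg38), a coactivator of estrogen receptors, was expressed at 3.29, 3.43 and 3.61 CPM in the vehicle libraries and at 4.61, 3.69 and 4.06 CPM in the TNFα libraries. With E2 it reached 45.0, 48.3 and 61.7 CPM, and with E2+TNFα 50.3, 49.5 and 58.5 CPM. Every library with E2 lay far above every library without it, and the E2 and E2+TNFα libraries overlapped. GREB1 was higher in E2+TNFα than in TNFα (log2 fold change 3.68, SE 0.17, adjusted p = 2.40e-10, edgeR quasi-likelihood test with Benjamini-Hochberg adjustment over 11303 genes). Relative to vehicle, E2 alone gave a log2 fold change of 3.90 (SE 0.17). GREB1 reached 1 RPKM only in libraries with E2, so it entered the test through the groups in which it was high. The same holds for TFF1, MAB21L4, FGFBP1, SOD3, SLC2A5 and GJA5 below. The adjusted p-values of these 7 genes are a description and no support.

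TFF1 (chr21:42362282-42366535), a secreted trefoil peptide also known as pS2, was close to silent without E2. The vehicle libraries held 1, 0 and 0 counts and the TNFα libraries 0 counts each. The E2 libraries held 10, 6 and 13 counts and the E2+TNFα libraries 11, 38 and 30 counts, or 0.969 ± 0.330 CPM (SD, n = 3). TFF1 was thus detected in all 6 libraries with E2, at a low level. Measured against 3 counts over the TNFα group, its level was at least 25.9-fold higher in E2+TNFα (adjusted p = 5.51e-05, edgeR). The ratio of E2 to vehicle was 118 with an exact 95% counting interval of 19.5 to 4805, since 1 count in vehicle sets it.

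MAB21L4 (chr2:240886048-240896889), a member of the mab-21-like family, showed the largest fitted rise of all 11303 genes tested in E2+TNFα relative to TNFα. That rank rests on the fit, and the lower bound given below does not secure it. MAB21L4 held 3, 2 and 3 counts in vehicle and 0 counts in every TNFα library. It held 517, 325 and 371 counts in E2 and 500, 915 and 1458 counts in E2+TNFα. In CPM the E2 and E2+TNFα groups overlapped, at 40.3 ± 10.1 and 35.5 ± 7.08 (SD, n = 3). The rise over TNFα was at least 950.5-fold against 3 counts over the group (adjusted p = 3.43e-10, edgeR). Relative to vehicle, the log2 fold change with E2 was 9.24 (SE 0.34), or 7.93 with 1 factor from housekeeping genes and 8.38 with GC and length trends removed.

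FGFBP1 (chr4:15935569-15938740) encodes a secreted carrier that releases fibroblast growth factors from the matrix. Counts were 0, 2 and 0 in vehicle and 4, 11 and 6 in TNFα. With E2 it reached 6.16, 9.89 and 13.2 CPM, and with E2+TNFα 7.23, 7.70 and 6.59 CPM, against 0.132, 0.359 and 0.312 CPM with TNFα alone. FGFBP1 was already above vehicle in every TNFα library, as 42.8% of all genes were, but far below the libraries with E2. The log2 fold change of E2+TNFα relative to TNFα was 4.74 (SE 0.42, adjusted p = 4.75e-07, edgeR). The ratio of E2 to vehicle, which rests on 2 vehicle counts, was 604 with a counting interval of 166 to 5014.

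SOD3 (chr4:24795463-24800845), the extracellular superoxide dismutase, also differed between vehicle and TNFα. It held 5, 1 and 3 counts in vehicle and 37, 39 and 6 counts in TNFα, where the level was 1.22, 1.27 and 0.312 CPM. The E2 libraries gave 3.01, 2.39 and 3.71 CPM and the E2+TNFα libraries 4.27, 4.06 and 6.44 CPM. The 4 groups did not overlap, in the order vehicle, TNFα, E2 and E2+TNFα, although TNFα replicate 3 was close to vehicle. Over all genes, 42.8% had TNFα libraries all above vehicle and 6.05% had E2+TNFα libraries all above E2. SOD3 was higher in E2+TNFα than in TNFα by 2.34 on the log2 scale (SE 0.39, adjusted p = 0.000257, edgeR). The log2 fold change was 5.38 (SE 0.55) for E2 relative to vehicle and 3.72 (SE 0.58) for TNFα relative to vehicle. Removal of the GC and length trends gave 4.21 and 2.51 for this pair.

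CALB2 (chr16:71358713-71390438), which encodes the calcium-binding protein calretinin, was the most abundant of the 10 genes. It stood at 27.3, 24.5 and 25.3 CPM in vehicle and 37.9, 35.0 and 32.0 CPM in TNFα. It stood at 343, 370.0 and 324 CPM in E2 and 279, 291 and 380.1 CPM in E2+TNFα. CALB2 was thus expressed without E2, and the libraries with E2 were clear of those without it. The log2 fold change of E2+TNFα relative to TNFα was 3.18 (SE 0.14, adjusted p = 1.58e-10, edgeR), and that of E2 relative to vehicle was 3.75 (SE 0.14), or 2.83 with GC and length trends removed.

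SLC2A5 (chr1:9036943-9071704), the fructose transporter GLUT5, had 12, 7 and 15 counts in vehicle and 0, 5 and 2 counts in TNFα. It rose to 2.97, 2.90 and 4.31 CPM with E2+TNFα, where 48, 83 and 144 counts stood behind the values. The E2 libraries gave 5.41, 4.63 and 2.44 CPM, the widest relative spread of the 10 genes in that group. The log2 fold change of E2+TNFα relative to TNFα was 5.22 (SE 0.56, adjusted p = 3.45e-06, edgeR). It ran from 4.57 without TNFα replicate 1 to 6.20 without TNFα replicate 2. For E2 relative to vehicle it was 3.97 (SE 0.46), or 3.02 with the housekeeping factor and 3.34 with the trends removed.

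GJA5 (chr1:147756199-147781067) encodes connexin 40, a subunit of gap junction channels. It held 2, 7 and 2 counts in vehicle and 0 counts in every TNFα library, and 16.5, 14.5 and 15.6 CPM in E2. The E2+TNFα libraries gave 11.4, 11.2 and 12.01 CPM. GJA5 was the only one of the 10 genes whose E2+TNFα libraries all lay below its E2 libraries (log2 −0.43, SE 0.23), an order that 9.27% of all genes showed. Its rise over TNFα was at least 309-fold against 3 counts over the group (adjusted p = 5.67e-09, edgeR).

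ZNF385A (chr12:54369129-54391305), a zinc finger protein, was expressed at 9.24, 8.23 and 7.55 CPM in vehicle and 12.2, 13.2 and 13.1 CPM in TNFα. It reached 46.6, 71.8 and 48.3 CPM in E2 and 52.5, 45.0 and 62.9 CPM in E2+TNFα. The libraries with E2 again lay above all others and overlapped each other. ZNF385A was higher in E2+TNFα than in TNFα (log2 fold change 2.06, SE 0.18, adjusted p = 3.75e-07, edgeR), and the value for E2 relative to vehicle was 2.73 (SE 0.18). The latter was 1.31 with the housekeeping factor, below the fold threshold, and 1.78 with the trends removed.

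CARD6 (chr5:40841308-40855354), a protein with a caspase recruitment domain, had the smallest rise of the 10 genes with E2 alone in the main fit. With the housekeeping factor or the trends removed, ZNF385A rose less (1.31 and 1.78). The level of CARD6 was 10.5, 12.2 and 10.3 CPM in vehicle and 26.5, 19.1 and 30.4 CPM in E2, a log2 fold change of 1.21 (SE 0.23). That value lies below the fold threshold of the study (1.5), but it was 2.62 with 1 factor from housekeeping genes in the fit and 2.09 with GC and length trends removed, both above it. With TNFα alone it stood at 4.84, 7.57 and 3.85 CPM, below every vehicle library (log2 −1.01, SE 0.23), as 43.8% of all genes were, and with E2+TNFα at 26.9, 28.8 and 22.6 CPM. The fall with TNFα alone was not seen with the housekeeping factor (0.0031) and was −0.15 with the trends removed. The log2 fold change of E2+TNFα relative to TNFα was 2.25 (SE 0.24, adjusted p = 2.56e-06, edgeR).

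**Figure D1:**
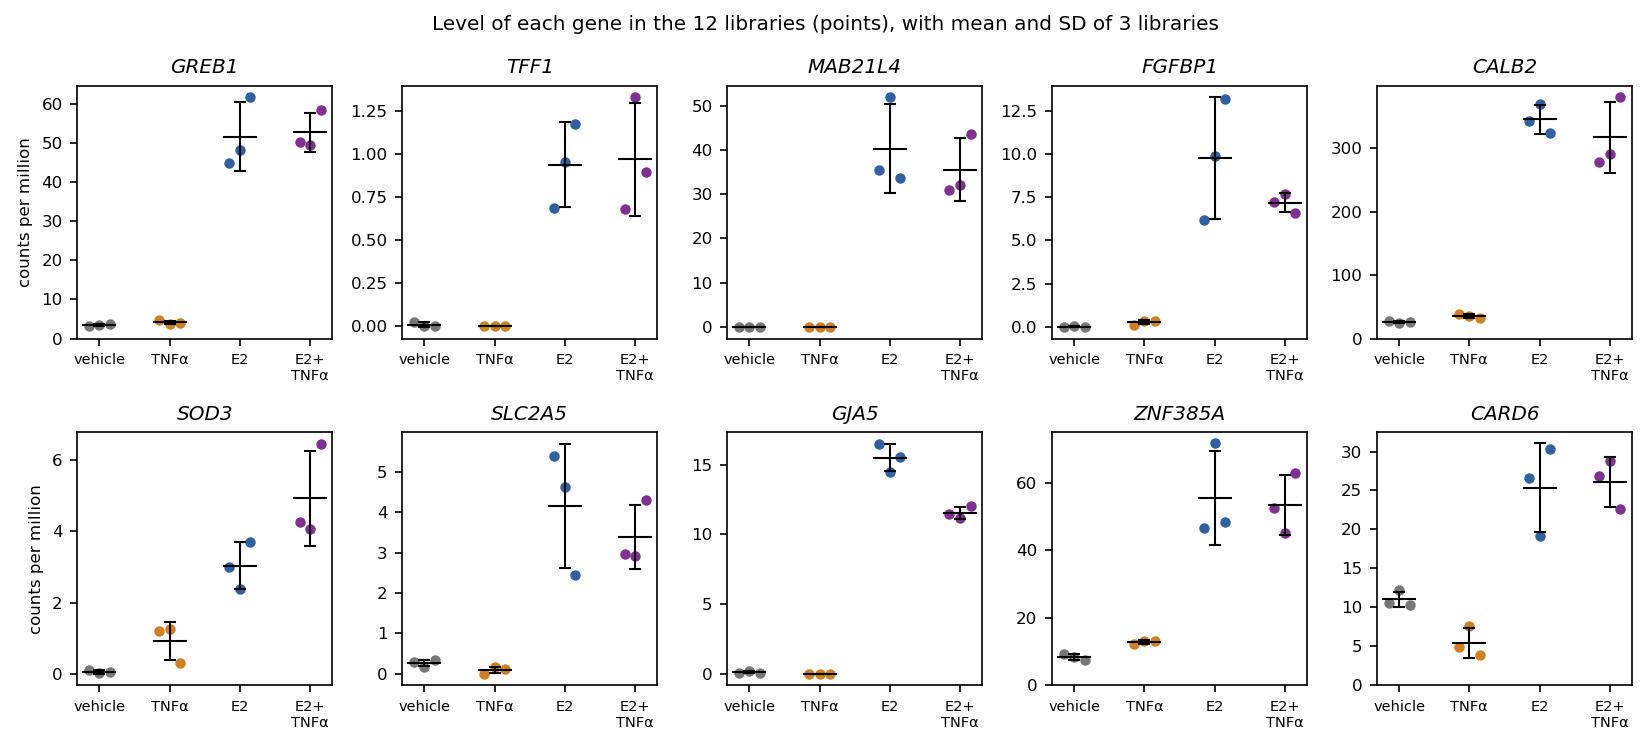
Level of each of the 10 genes in CPM (linear axes) in the 12 libraries, with points for libraries and bars for the mean and SD of 3 libraries per group. In every panel the 6 libraries with E2 lie above the 6 without it.

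Each of the 10 genes passed the filter on low values, but 7 (GREB1, TFF1, MAB21L4, FGFBP1, SOD3, SLC2A5 and GJA5) reached 1 RPKM only in libraries with E2. Those 7 entered the test through the groups in which they were high and had to differ, so their calls are no support for the set. CALB2, ZNF385A and CARD6 reached 1 RPKM in libraries without E2 as well. As a description, all 10 were called higher in E2+TNFα than in TNFα, where 3.55% of the 11303 genes tested were called higher and 2.01% lower. The groups did not overlap in any of the 10, and in 23.7% of the genes tested they were likewise apart in this direction. The thresholds were those of the study (log2 fold change of at least 1.5, p below 0.05 and adjusted p of at most 0.1). In the comparison by which they were proposed, E2 relative to vehicle, 9.87% of genes were called higher and 20.6% lower. In that comparison 39.0% of genes had E2 libraries all above vehicle. The shares of 9.87% and 20.6%, used again below, moved strongly with the processing, as given in the section on it. The number of genes higher in both comparisons was 215, which is 53.6% of the 401 higher in E2+TNFα relative to TNFα and 19.3% of the 1116 higher in E2 relative to vehicle. In E2+TNFα relative to E2, 0.389% of all genes were called higher and 0.0177% lower, and the values of the 10 genes ran from −0.44 (FGFBP1) to 0.68 (SOD3) on the log2 scale.

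**Figure D2:**
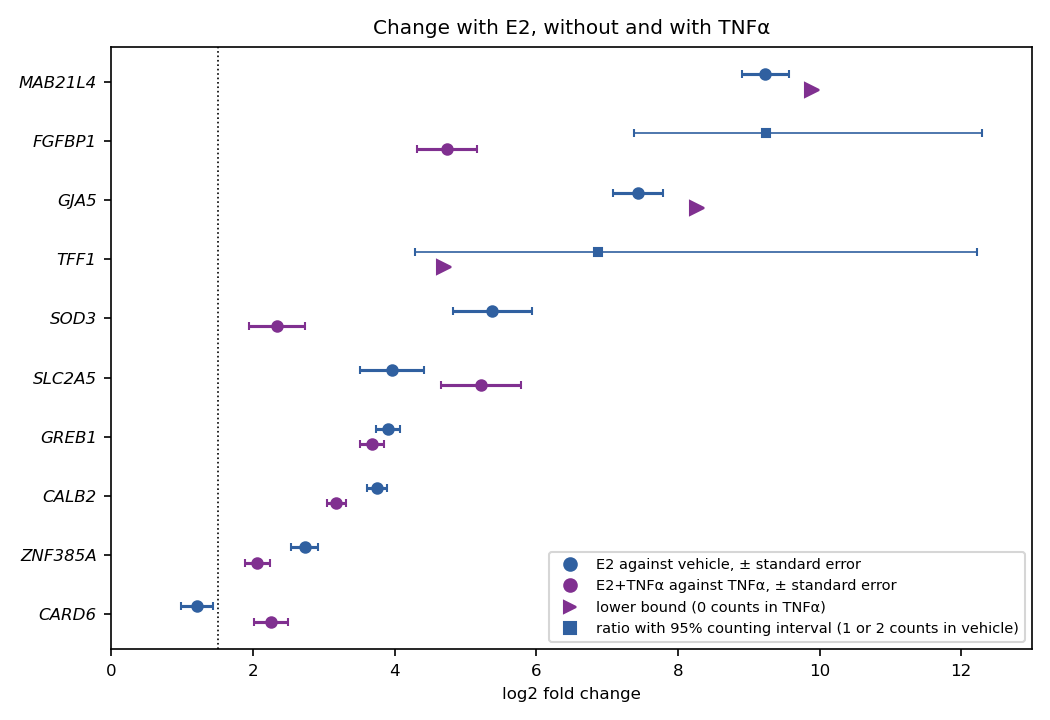
Log2 fold change with E2 relative to vehicle and with E2+TNFα relative to TNFα for each gene, with standard errors, lower bounds (arrows) where TNFα libraries held 0 counts, and counting intervals where vehicle held 1 or 2 counts. All values with TNFα lie above the dotted threshold of 1.5, and CARD6 with E2 alone lies at 1.21.

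**Figure D3:**
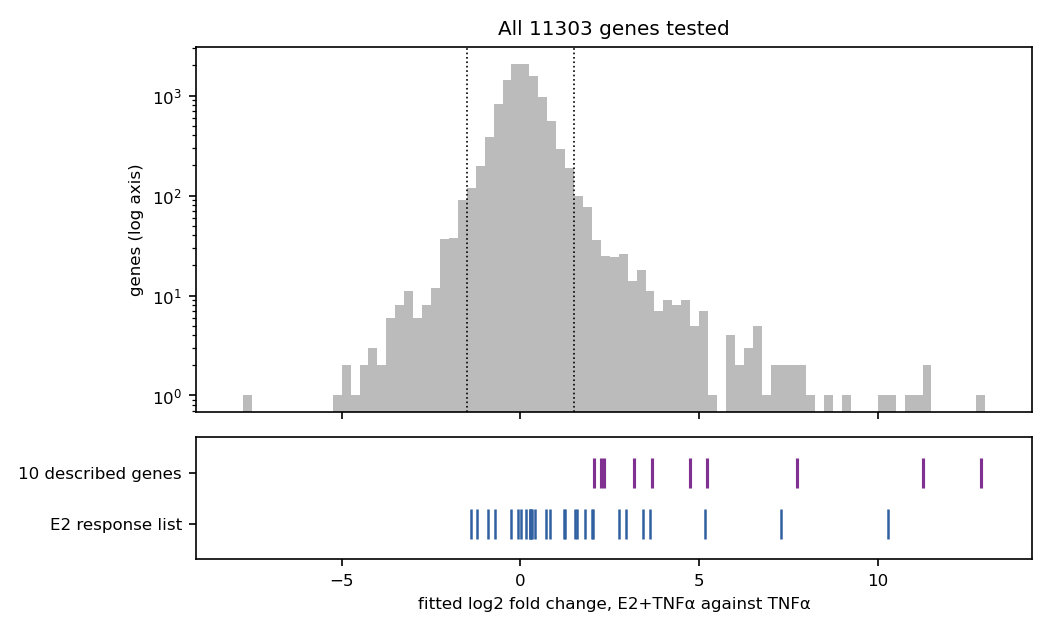
Distribution of the fitted log2 fold change of E2+TNFα relative to TNFα over the 11303 genes tested (number of genes on a log axis), with the 10 genes and the E2 response list marked below. The 10 genes lie between 2.06 (ZNF385A) and the highest fitted value of all (MAB21L4). The latter value rests on the fit, since the TNFα libraries held 0 counts of MAB21L4.

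Side by side, the log2 fold change with E2 was 3.90 without and 3.68 with TNFα for GREB1. It was 5.38 and 2.34 for SOD3, whose TNFα libraries all lay above vehicle, and 1.21 and 2.25 for CARD6, whose TNFα libraries all lay below vehicle. For CARD6 the value without TNFα was 2.62 with the housekeeping factor and 2.09 with the trends removed, while that with TNFα ran from 2.07 to 2.56 over the alternatives, so the order of the pair depends on the processing. The difference between these pairs was not tested.

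Compared per length, the levels with E2+TNFα ranged from 216 RPKM for CALB2 to 1.12 RPKM for SLC2A5. ZNF385A (19.2 RPKM) and MAB21L4 (12.8 RPKM) followed CALB2. CARD6 (6.37 ± 0.78 RPKM), FGFBP1 (5.28 ± 0.41) and GREB1 (4.72 ± 0.45) came next, and the ranges of mean ± SD of neighbours in this order overlapped. SOD3 stood at 3.22 RPKM, and GJA5 (1.99 ± 0.07) and TFF1 (1.97 ± 0.67) did not differ beyond their spread. CALB2 thus ranked at the 97.3 percentile of all genes tested and SLC2A5 at the 13.9 percentile. The exons of SOD3 had a GC content of 68.1%, higher than in 99.2% of genes, while those of CARD6 had 44.3%.

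A list of 49 other genes known as E2 targets of ERα-positive breast cancer cells was set beside them, of which 32 were in the table and 29 were tested. The list was chosen with earlier results of these data known, so the counts below are a description. In E2+TNFα relative to TNFα, 12 were called higher and 0 lower by edgeR, against 3.55% and 2.01% of all genes, and the median log2 fold change was 0.83 against 0.04 over all genes. Without the fold threshold, 18 were higher and 4 lower at an adjusted p of at most 0.1, where 24.4% of all genes were higher. The share of all genes lower at that adjusted p was not counted, so nothing is drawn from the 4. With E2 relative to vehicle, 15 were called higher and 3 lower, against 9.87% and 20.6% of all genes, with a median of 1.51 against −0.02. These counts were 14 and 1 with the housekeeping factor, 11 and 1 with the trends removed, and 12 and 5 with library size only.

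The epithelial keratin KRT13 had 6, 2 and 0 counts in TNFα and 1875, 3470 and 5112 counts in E2+TNFα (log2 fold change 10.29, SE 0.30, adjusted p = 4.31e-12, edgeR). The matricellular protein gene CCN5 went from 0, 0 and 6 counts to 166, 358 and 527 counts (7.30, SE 0.58). PDZK1, a scaffold protein, went from 0.555 ± 0.424 to 18.3 ± 2.76 CPM (SD, n = 3; log2 5.16, SE 0.36). PRSS23, a serine protease, went from 192 ± 1.15 to 2386 ± 284 CPM (log2 3.64, SE 0.12). These 4 had the largest fitted rises of the list, and each was also called higher in E2 relative to vehicle (log2 6.90, 6.31, 2.88 and 3.59). KRT13, CCN5 and KCNK15 are 3 of the 12 genes called higher in E2+TNFα relative to TNFα and 3 of the 15 in E2 relative to vehicle. They reached 1 RPKM only in libraries with E2, and PDZK1 reached it in 1 library without E2. Their calls carry the same limit as those of the 7 genes above, while PRSS23 reached 1 RPKM in all 12 libraries. The cell cycle gene CCND1 was near the threshold in both (1.54 and 1.53).

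**Figure D4:**
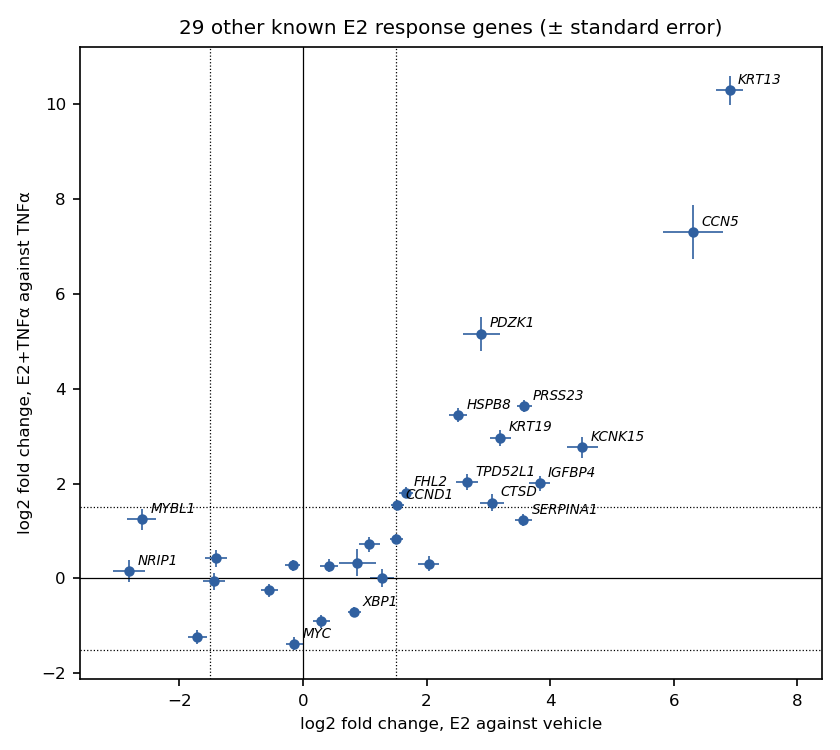
Log2 fold change of 29 other known E2 response genes in E2 relative to vehicle (horizontal) and in E2+TNFα relative to TNFα (vertical), with standard errors and dotted lines at 1.5 and −1.5. KRT13 and CCN5 stand highest in both, while NRIP1, MYBL1 and SGK1 lie below −1.5 in E2 relative to vehicle only.

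Relatives of the 10 genes by symbol were 55, of which 26 were in the table and 21 were tested. With E2+TNFα relative to TNFα, 4 were called higher (1 of them TFF2, which reached 1 RPKM only in libraries with E2) and 1 lower, where 3.55% of all genes were higher and 2.01% lower, and the median log2 fold change was 0.04, the same as over all genes. The connexin gene GJA1 (connexin 43) was higher (log2 3.68, SE 0.35, adjusted p = 8.71e-07, edgeR). Its level rose from 2.09 ± 1.34 to 25.9 ± 7.07 CPM (SD, n = 3). GJB2 (connexin 26), which reached 1 RPKM only in libraries without E2 and so carries the same limit, was lower, with 3.66, 5.38 and 6.29 CPM in TNFα and 1.61, 1.57 and 0.839 CPM in E2+TNFα (−1.95, SE 0.39). GREB1L was higher with E2+TNFα than with TNFα (1.998, SE 0.18) and not called in E2 relative to vehicle (−0.31, SE 0.17). The sign of the latter value turned with the housekeeping factor and with the trends removed, as given below. Relative to vehicle, E2 left 7 relatives called higher and 1, SOD2, lower, against 9.87% and 20.6% of all genes. With the housekeeping factor or the trends removed, 4 were called higher and 0 lower, so the call of SOD2 was lost.

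The nearest tested gene on each side of each of the 10 genes was also examined, which gave 20 neighbours. For E2+TNFα relative to TNFα, 2 were called higher and 0 lower, against 3.55% and 2.01% of all genes, and both flank TFF1 on chromosome 21. TMPRSS3 and TFF2 reached 1 RPKM only in libraries with E2, so they too entered the test through the groups in which they were high and had to differ, and their calls are no support. TMPRSS3, a serine protease 5.351 kb away, held 4, 5 and 0 counts in TNFα and 176, 282 and 335 counts in E2+TNFα (log2 6.47, SE 0.38, adjusted p = 4.72e-09, edgeR). TFF2, another trefoil peptide 11.182 kb away, held 12, 11 and 3 counts in TNFα and 45, 83 and 110 counts in E2+TNFα (3.22, SE 0.37). CCDC149, 5.271 kb from SOD3, also at 1 RPKM only in libraries with E2, stood below the fold threshold (1.34, SE 0.25, adjusted p = 0.000678). The other 17 had values between −0.71 (FAM200B) and 0.69 (ZNF23), and the nearest of them, ITGA5 at 3.955 kb from ZNF385A, stood at −0.33. For E2 relative to vehicle, 3 neighbours were called higher and 5 lower, where 9.87% of all genes were higher and 20.6% lower. These 3 reached 1 RPKM only in libraries with E2, and 4 of the 5 only in libraries without it. The counts higher and lower were 6 and 4 with the trends removed, and 2 and 3 with the housekeeping factor.

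**Figure D5:**
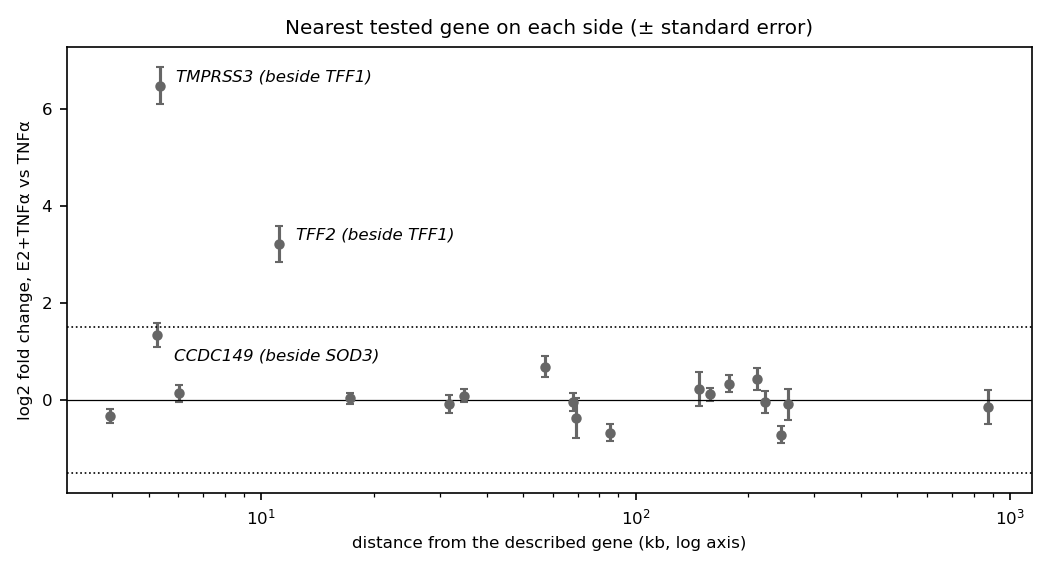
Log2 fold change of E2+TNFα relative to TNFα (± standard error) for the 20 nearest tested genes, against their distance from the described gene in kb (log axis). TMPRSS3 and TFF2, both beside TFF1, lie above the dotted threshold of 1.5 and CCDC149 lies just below it.

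Over the 12 libraries, each of the 10 genes followed the mean profile of the other 9, with a Pearson r from 0.835 (SOD3) and 0.856 (CARD6) to 0.995 (GREB1). Among 11185 other genes, the highest r with the mean profile was found for ALPP (0.997), PRSS23 (0.997), GINS4 (0.996), CXCL14 (0.996) and ALPG (0.995). These values share the 4 groups of libraries and are a description. ALPP, a placental alkaline phosphatase, stood at 5.66 CPM in vehicle, 8.33 in TNFα, 588 in E2 and 612 in E2+TNFα. ALPG is a near-identical copy of ALPP, so the division of reads between them is uncertain. The chemokine gene CXCL14 stood at 0.670 CPM in vehicle, 0.758 in TNFα, 208 in E2 and 177 in E2+TNFα.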

How the data were processed

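RNA was extracted with TRIzol and stranded mRNA libraries were made and sequenced by the authors. The deposited counts are whole numbers of reads per gene that the authors obtained with TopHat2 2.1.0 and featureCounts on hg38, per the labels. They were taken to hold no batch correction, which was not tested. The paper states that batches were corrected for with RUVseq and housekeeping genes. From 12567 entries, 46 exact repeats were dropped, as were 70 that duplicated the locus and counts of a different symbol. Separate loci of one symbol (14 symbols) stayed as separate entries. The test covered the 11303 genes reaching 1 RPKM in 3 or more libraries. Counts were scaled with TMM and fitted with edgeR 4.0.16 (R 4.3.3), with 4 group means and the quasi-likelihood F test. SE was the log2 fold change divided by the square root of F. CPM used TMM-scaled library sizes. A group with 0 counts was set at 3 counts over the group, and intervals (95%) cover counting error only. Replicates differed by more than counting error (chi-square per degree of freedom of 9.49 or more in every pair). Tested on simulated data for E2+TNFα relative to TNFα (11303 genes, 200 changed), 98 of 100 genes changed by 2 and 100 of 100 changed by 3 on the log2 scale were recovered, with 3 false calls. The 10 genes and the lists were chosen with earlier results of these data known. Named were the 10 genes, ESR2, the 4 largest called changes in each direction of each list, GREB1L, the nearest tested neighbours and the 5 genes of closest profile, except for 1 item of this rule that is not reported here. The rule also listed ESR1, PGR and TFF3, which gave no values here. CCND1, NRIP1, MYBL1, SGK1, KCNK15, SOD2 and the genes of the interaction were named after their values were seen. DESeq2 1.42.0 was an alternative.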

Additional observations from a re-analysis of the deposited data

Results flagged for a closer look

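Of 74 named genes outside the set that were tested (ESR2, the lists, the neighbours and the genes of closest profile), the change with E2 differed between cells with and without TNFα for 20. Over all 11303 genes tested, 31.8% passed the same thresholds, so 20 of 74 is no larger a share than over all genes. The value given is the log2 fold change with E2 in the presence of TNFα minus that in its absence, tested as an interaction in edgeR with Benjamini-Hochberg adjustment and the thresholds of the study. The interaction was not tested for the 10 genes described. The change was more positive with TNFα for MYBL1 (3.85), ZNF23 (3.62), KRT13 (3.39), GPR89B (3.25), CMTR2 (3.08), NRIP1 (2.98), GREB1L (2.30), PDZK1 (2.28), GPR35 (2.22), SLC39A6 (1.82), OXCT1 (1.81) and DHX15 (1.76). It was more negative with TNFα for GJD3 (−3.06), FGFBP3 (−2.90), SERPINA1 (−2.34), GJB2 (−2.21), IGFBP4 (−1.83), KCNK15 (−1.76), SLC7A5 (−1.73) and XBP1 (−1.55). The largest adjusted p among them was 0.00587 (OXCT1). CMTR2, GPR89B, GPR35, OXCT1, FGFBP3 and GJB2 reached 1 RPKM only in libraries without E2, and KRT13 and KCNK15 only in libraries with it. These genes entered the test through the groups in which they were high, so their interaction carries the limit of the filter described above. The interaction uses the vehicle libraries, which stood apart. With GC and length trends removed, 8 of the 20 stayed past the thresholds in the same direction, and with 1 factor from housekeeping genes 6 did and CMTR2 and DHX15 changed sign. The cause was not tested.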

How the results depend on the processing

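All 10 genes stayed called higher in E2+TNFα relative to TNFα under every alternative in which they were fitted, including the fit of the compared groups alone, DESeq2 and each library left out. Their lowest values were 1.99 (SOD3), 1.93 (ZNF385A) and 2.07 (CARD6). For the 7 genes that reached 1 RPKM only in libraries with E2, these calls carry the limit of the filter described above and are no support. CALB2, ZNF385A and CARD6 reached it in libraries without E2 as well. With at least 10 counts required in every library, 4 genes could be tested and 4 were called. The alternatives for neighbours, ESR2, all genes, the interaction, and part of those for E2 relative to vehicle were added after seeing the data.

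In E2 relative to vehicle, the median log2 fold change of the 10 genes (4.67) was 4.33 when scaled by library size alone, 3.17 with at least 10 counts (4 genes), 4.31 with 1 factor from housekeeping genes, 4.19 with GC and length trends removed, and 4.41 to 4.96 with 1 library left out. CARD6 (1.21) was 0.87 with library size only, 2.62 with the housekeeping factor and 2.09 with the trends removed, and ZNF385A (2.73) was 1.31 and 1.78 under the last 2. Library size only moved the median of all genes to −0.38.

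Replicate numbers did not pair the libraries: deviations of same-numbered libraries correlated at −0.48 to 0.47 over 18 pairs, and other pairs at −0.55 to 0.66. With the replicate block, 10 of the 10 genes stayed called, with the limit of the filter for 7 of them. All genes called higher in E2+TNFα relative to TNFα went from 401 to 396 with the block. Adding the block to the trend removal gave a median of 4.19 for the 10 genes in E2 relative to vehicle, and 748 genes lower.

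For all genes in E2 relative to vehicle, 1116 higher became 629 with library size only, and 2331 lower became 780 with the housekeeping factor and 744 with the trends removed. Of the E2 response list, the 3 genes lower became 5 with library size only and 1 with the housekeeping factor or the trends removed, with or without the block, and 3 to 5 with 1 library left out. In E2+TNFα relative to TNFα the list had 0 to 1 lower with 1 library left out, 1 of them without E2+TNFα replicate 3. Relatives higher in E2 relative to vehicle fell from 7 to 4 with the factor or the trends (also with the block), and those lower went from 1 to 2 with library size only or no filter, 0 with the factor or the trends (also with the block), and 1 to 2 with 1 library left out. In E2+TNFα relative to TNFα, relatives lower became 0 with at least 10 counts and 1 to 2 with 1 library left out. Neighbours higher went from 2 to 0 with at least 10 counts in E2+TNFα relative to TNFα. In E2 relative to vehicle they went from 3 to 1 with at least 10 counts and to 6 with the trends removed (also with the block), and those lower from 5 to 1 with at least 10 counts and 3 with the factor.

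Changes of sign were seen for relatives, neighbours and some of the 10 genes, all in log2. In TNFα relative to vehicle, ZNF385A (0.62) became −0.36 with the factor and −0.34 with the trends removed. CALB2 (0.45) became −0.23 with the trends removed, and CARD6 (−1.01) became 0.0031 with the factor. In E2+TNFα relative to E2, the factor gave 0.18 for MAB21L4 (−0.17), 0.33 for ZNF385A (−0.046) and −0.32 for CARD6 (0.032). Removal of the trends gave 0.15 for CALB2 (−0.12). In E2 relative to vehicle, GREB1L became 0.41 with the factor, 0.74 with the trends removed and 0.73 with the block added. GJB2 became −0.090 and LPIN1 −0.26 with library size only, with ranges of −0.16 to 0.75 and −0.051 to 0.24 with 1 library left out. FAM200B became 0.0045 with DESeq2 size factors, 0.016 with no filter, 0.17 with the factor, 2.49 with the trends (also with the block) and −0.078 to 0.0041 with 1 library left out. TAPT1 became 0.56 with the trends and 0.57 with the block added. With the factor, E2F6 became 0.23, CMTR2 0.38, DHX15 0.91 and GPR157 −0.78, and GPR157 became −0.30 with the trends and −0.31 with the block added. The interaction became −0.73 for CMTR2 and −0.44 for DHX15 with the factor. In E2+TNFα relative to TNFα, GPR35 became 0.021 and GPR157 0.020 with the trends, GPR157 0.015 with the block added, and COPZ1 −0.0022 with library size only. With 1 library left out, COPZ1 ranged from −0.012 to 0.080, E2F6 from −0.15 to 0.078, GPR157 from −0.26 to 0.10, GPR35 from −0.34 to 0.033, GPR89B from −0.022 to 0.46, OXCT1 from −0.39 to 0.12, RPL37 from −0.023 to 0.28 and TAPT1 from −0.15 to 0.11. The causes were not tested. TFF1 had at most 38 counts in a library, and its fitted value for E2 relative to vehicle (6.22) ran from 5.11 with the trends removed to 7.53 without vehicle replicate 1. Without vehicle replicate 2, FGFBP1 (8.91) became 10.92 and GJA5 (7.44) became 8.23.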

Other observations

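Several genes outside the lists rose with E2 as far as the 10 genes did. Ranked by the smaller of their fitted log2 fold changes in E2+TNFα relative to TNFα and in E2 relative to vehicle, S100A7, a calcium-binding protein of squamous epithelium, stood first (9.45), above MAB21L4 (9.24). F13A1, which encodes a subunit of coagulation factor XIII, stood at 8.48, the cystatin genes CST5 and CST2 at 7.35 and 6.96, the focal adhesion gene TNS4 at 7.05 and S100A9 at 6.38. These genes were named after their values were seen, and the values are fitted, so they are no bounds where a group held few counts.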
